A study of Mus musculus with 9 samples.

Results

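The 34 genes described here encode the enzymes that activate fatty acids, carry them into mitochondria and peroxisomes and oxidise them, together with Ppara and Ppargc1a, regulators of that programme, and Bdh1 of ketone body metabolism. They were taken by name from a list of members, a rule that uses no measured value. The list itself was chosen with earlier results of these data known. All 34 were present among the 26139 genes of the expression table, and all 34 passed the filter on low values that left 11617 genes for testing. Kidney RNA was sequenced in 9 libraries of 3 groups. GQYS mice carried the Itgam-IRES-hCD89 allele and were gavaged every day over 5 months with a herbal preparation, Gui-qi-yi-shen granules. IgAN mice carried the same allele and were gavaged with saline, and served as a model of IgA nephropathy. WT mice were C57/BL6 without the allele, gavaged with saline. Each group had 3 libraries. The allele places human CD89, a receptor for IgA, behind Itgam, a gene of myeloid cells, which are a minor part of whole kidney. The labels do not say that each library is a different animal, so p-values measure the spread between libraries, which may be technical, and the age of the animals is not given.

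Fatty acids are the main fuel of the proximal tubule, the most abundant epithelium of the kidney cortex. After activation to acyl-CoA and transfer across the mitochondrial membranes as carnitine esters, each turn of beta-oxidation shortens the chain through a dehydrogenase, a hydratase, a further dehydrogenase and a thiolase, and passes electrons to the respiratory chain through the electron transfer flavoprotein. Very long chains are shortened first in peroxisomes, and the nuclear receptor PPAR-alpha, encoded by Ppara, is the best known activator of the genes of both routes.

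The libraries carried the markers of whole kidney. The summed level of 12 proximal tubule markers lay between 5470 and 6196 FPKM (reads scaled by gene length and library total) in every library. Single markers varied more than the sum, as Lrp2 had 91.9 FPKM in WT replicate 1 and 222 FPKM in WT replicate 3. Of the 12, Lrp2, Cubn, Slc22a6 and Aqp1 were lowest in WT replicate 1, and Slc22a8 and Miox were highest there. Recovered read totals were 30564947 to 38161564 per library. 3 libraries stood apart. WT replicate 1 had 18.6% of its reads on mitochondrially encoded genes, against 7.81% to 13.3% in the other 8. IgAN replicate 1 had a summed level of 1247 FPKM over 8 tubular injury genes, against 342 to 597 FPKM elsewhere, and of these genes Havcr1 had 43.8 FPKM there and at most 1.79 FPKM in any other library. WT replicate 3 had 18.1 FPKM over 6 white fat markers and 7.01 FPKM over 4 brown fat markers, against at most 0.615 and 0.182 FPKM elsewhere, where fat-defining Adipoq stayed at or below 0.0796 FPKM. In bulk tissue, fewer cells of a type and less RNA per cell cannot be told apart.

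Several marker lists differed nominally between the groups that the 34 genes are compared between. Tubular injury genes summed to 342 to 525 FPKM in GQYS, 488 to 1247 FPKM in IgAN and 373 to 389 FPKM in WT. Of the 8, 6 were tested, and 6 of 6 were nominally higher in IgAN against WT (median log2 difference of 1.39, 1 called higher) and 0 of 6 in GQYS against IgAN (median of -1.37, 1 called lower). The 2 other IgAN libraries, at 488 and 597 FPKM, also lay above all WT libraries. Myeloid markers summed to 63.7 to 81.5 FPKM in GQYS, 95.1 to 147 FPKM in IgAN and 51.6 to 127 FPKM in WT. They were nominally higher in 6 of 6 cases in IgAN against WT (median of 0.37) and in 0 of 6 in GQYS against IgAN (median of -0.48). Mitochondrially encoded genes were nominally higher in 0 of 13 cases in IgAN against WT (median of -0.32) and in 13 of 13 in GQYS against IgAN (median of 0.26). Their share of reads was 11.8%, 10.4% and 13.3% in GQYS and 11.3%, 7.81% and 10.7% in IgAN. In WT it was 18.6%, 10.5% and 9.15%. The groups overlapped, WT replicate 1 was the highest library, and the 13 genes of 1 genome are not separate cases. Endothelial markers were nominally higher in GQYS in 4 of 4 cases against IgAN and 4 of 4 against WT, with sums of 84.3 to 91.5 FPKM in GQYS, 61.5 to 73.1 FPKM in IgAN and 67.2 to 80.0 FPKM in WT. Podocyte markers were likewise nominally higher in GQYS in 4 of 4 cases against IgAN and 4 of 4 against WT. Their sums were 75.9 to 95.6 FPKM in GQYS, 57.7 to 79.4 FPKM in IgAN and 63.9 to 73.5 FPKM in WT. Collecting duct markers summed to 195 to 218 FPKM in GQYS, 221 to 313 FPKM in IgAN and 199 to 224 FPKM in WT. Of these 8 genes, 3 were nominally higher in GQYS against IgAN. None of the myeloid, mitochondrially encoded, endothelial, podocyte or collecting duct genes was called by limma. The part of these lists in the differences of the 34 genes and of the other pathway genes was not tested, apart from the fit with the mitochondrial share as a covariate given further on.

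None of the 34 genes differed between groups past the threshold, an adjusted p below 0.05 from limma with Benjamini-Hochberg adjustment over all 11617 genes, in any of the 3 comparisons. Median log2 differences by step of the pathway lay between -0.13 for the regulators and 0.18 for the peroxisomal genes in IgAN against WT, between -0.12 and 0.17 in GQYS against IgAN, and between -0.07 and 0.15 in GQYS against WT. In IgAN against WT kidneys, 22 members were nominally higher and 12 lower, where 54.7% of all genes tested were nominally higher. The members had a median log2 difference of 0.07 and a range of -0.23 to 0.35, beside a median of 0.02 over all genes tested. Called members numbered 0, where 0.353% of all genes were called. An unadjusted p under 0.05 was found for 1 member, and for 10.3% of all genes. Voom on the recovered reads called 0 members as well. In GQYS against IgAN kidneys, 13 members were nominally higher and 21 lower, where 51.6% of all genes were nominally higher. The members had a median of -0.03 and a range of -0.21 to 0.30, beside a median of 0.01 over all genes. Limma and voom each called 0 members, and limma called 0.198% of all genes. By limma, 0 members had an unadjusted p under 0.05, where 10.4% of all genes did. In GQYS against WT kidneys, 22 members were nominally higher and 12 lower, where 59.3% of all genes were nominally higher. The members had a median of 0.04 and a range of -0.42 to 0.47, beside a median of 0.03 over all genes. Limma and voom again called 0 members, and limma called 0% of all genes. By limma, 2 members had an unadjusted p under 0.05, where 4.43% of all genes did. The IgAN libraries enter the first and second of these comparisons and the WT libraries the first and the last, so the comparisons are not independent of each other.

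The 95% confidence intervals are for differences of log2(FPKM + 1) and are not adjusted for the number of genes. On that scale the interval lay inside 2-fold in either direction for all 34 genes in each of the 3 comparisons. It lay inside 1.5-fold for 25 genes in IgAN against WT, for 23 in GQYS against IgAN and for 24 in GQYS against WT. Among the widest intervals were those of Acsm3, Etfdh, Ppargc1a and Acsl1. These intervals cover the spread between the libraries only, hold for this fit and are no limit of detection. The pseudocount of 1 understates differences of low genes such as Ppargc1a, so for them 2-fold here is not 2-fold in FPKM.

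**Figure D1:**
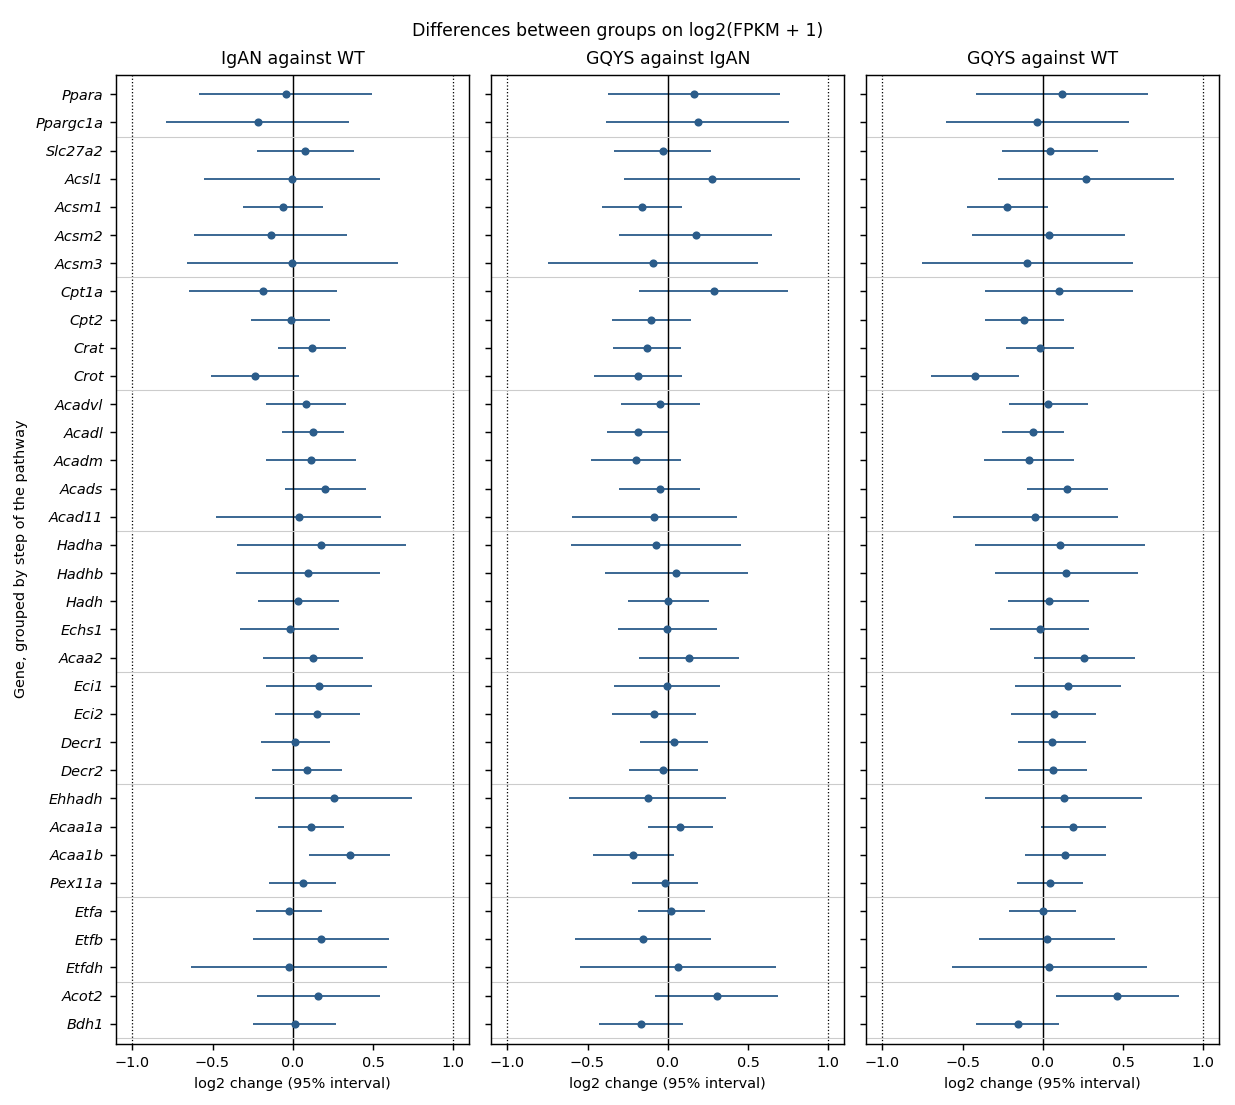
Log2 difference of each of the 34 genes on log2(FPKM + 1) in the 3 comparisons, points with 95% confidence intervals from limma, grouped by step of the pathway; dotted lines mark 2-fold. All intervals lie inside the dotted lines, and most cross 0.

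A looser description asks whether the 3 libraries of a group lay wholly above or below the 3 of another. In IgAN against WT, 3 members (Acaa1b, Acadl and Acot2) lay wholly higher, where 9.18% of all genes did, and 0 lay wholly lower, where 4.8% of all genes did. In GQYS against IgAN, 1 member (Acaa1a) lay wholly higher, where 9.84% of all genes did, and 3 (Acadl, Acaa1b and Crot) wholly lower, where 9.29% did. In GQYS against WT, 2 members (Acot2 and Acaa1a) lay wholly higher, where 7.14% of all genes did, and 3 (Crot, Acsm1 and Acadl) wholly lower, where 2.61% did. The share of the 34 members was below the background on 5 of these 6 counts, and above it for the lower side of GQYS against WT, which rests on 3 genes.

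The levels spanned a wide range. Slc27a2, at a mean of 1883 FPKM, ranked 16 of all genes in the table, and Acsm2 at 799 FPKM and Acadm at 442 FPKM followed. At the other end stood Ppargc1a at 4.85 FPKM, Ppara at 11.9 FPKM and Acot2 at 13.8 FPKM. Every member had at least 807 reads in every library. The summed level of the 34 genes was lowest in WT replicate 1, at 6053 FPKM, and highest in IgAN replicate 2, at 6829.9 FPKM.

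**Figure D2:**
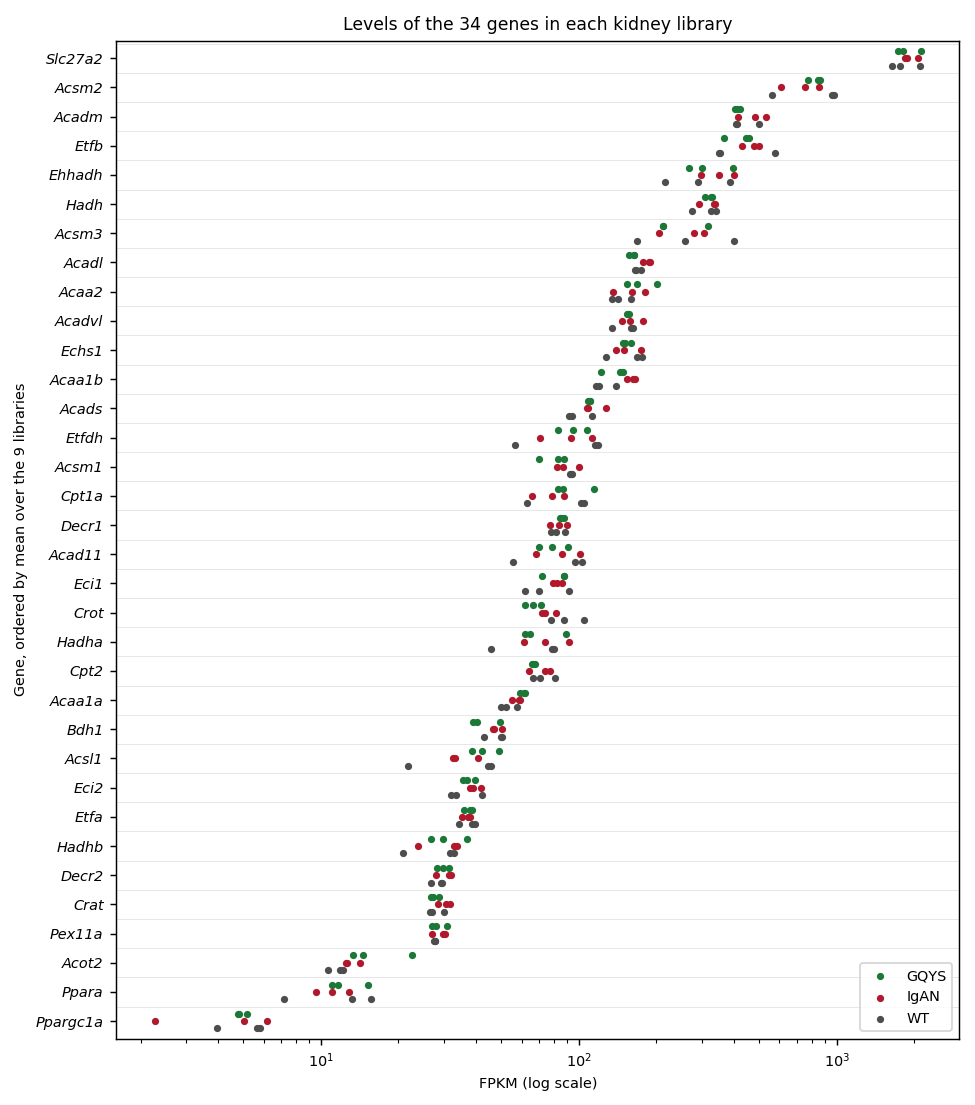
FPKM of the 34 genes on a log scale in each of the 9 libraries, ordered by mean; each point is a library and colour gives the group. The groups overlap for most genes, and WT points are the most spread for many of them.

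Of the regulators, Ppara encodes the fatty acid-activated receptor PPAR-alpha, and it had 11.0, 15.3 and 11.7 FPKM in GQYS libraries, against 9.61, 12.9 and 11.0 FPKM in IgAN libraries and 7.21, 13.2 and 15.6 FPKM in WT libraries. The WT libraries held both the lowest and the highest value. Ppargc1a, the coactivator PGC-1alpha, had 4.79, 5.16 and 4.84 FPKM in GQYS, against 2.27, 6.18 and 5.03 FPKM in IgAN and 3.94, 5.80 and 5.64 FPKM in WT. IgAN replicate 1, the library with the high injury genes, was the lowest and the other 2 IgAN libraries were within or above the range of the rest. The part of tubular injury in this value was not tested. The log2 difference of Ppargc1a was -0.22 ± 0.26 (SE) in IgAN against WT and 0.19 ± 0.26 in GQYS against IgAN, with limma adjusted p of 0.862 and 0.912.

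Uptake and activation to acyl-CoA were represented by 5 genes. Slc27a2, the very long-chain acyl-CoA synthetase and fatty acid transporter FATP2, had 2123, 1735 and 1806 FPKM in GQYS, against 1881, 1834 and 2065 FPKM in IgAN and 2098, 1760.3 and 1639.5 FPKM in WT. Its highest value was only 1.3 times its lowest, and the groups overlapped. Acsl1, the main long-chain acyl-CoA synthetase of many oxidative tissues, had 38.4, 48.9 and 42.1 FPKM in GQYS, against 32.7, 40.6 and 33.2 FPKM in IgAN and 21.9, 44.5 and 45.6 FPKM in WT. WT replicate 1 was far below the other 2 WT libraries, so the WT values reach below both other groups. In the fit the log2 difference of Acsl1 was 0.27 ± 0.25 (SE) in GQYS against IgAN (adjusted p = 0.823, limma).

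Acsm1, Acsm2 and Acsm3 encode medium-chain acyl-CoA synthetases of the mitochondrial matrix. Acsm1 had 83.0, 70.3 and 87.3 FPKM in GQYS, against 86.9, 99.9 and 82.3 FPKM in IgAN and 93.3, 92.8 and 93.9 FPKM in WT. The 3 WT values lay within about 1 FPKM of each other and above all 3 GQYS values, while the IgAN values overlapped both groups. The log2 difference in GQYS against WT was -0.22 ± 0.11 (SE, unadjusted p = 0.0782, adjusted p = 0.999, limma), which is not past the threshold. Acsm2 had 847, 862 and 772 FPKM in GQYS, against 607, 856 and 756 FPKM in IgAN and 559, 957 and 976 FPKM in WT. Acsm3 had 212, 317 and 213 FPKM in GQYS, against 204, 279 and 306 FPKM in IgAN and 169, 401 and 258 FPKM in WT. For Acsm2 and Acsm3 alike, WT replicate 1 was the lowest of the 9 libraries and another WT library the highest.

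The carnitine system moves the activated chains. Cpt1a, the carnitine palmitoyltransferase of the outer mitochondrial membrane and the controlled step of entry, had 87.2, 114 and 83.0 FPKM in GQYS, against 66.1, 87.6 and 78.6 FPKM in IgAN and 62.9, 102 and 105 FPKM in WT. WT replicate 1 and IgAN replicate 1 were the 2 lowest libraries. The log2 difference was -0.19 ± 0.21 (SE) in IgAN against WT and 0.28 ± 0.21 in GQYS against IgAN, with limma adjusted p of 0.852 and 0.738. Cpt2, its partner at the inner membrane, stayed between 64.3 and 81.2 FPKM over the 9 libraries. Crat, the acetyltransferase that exports short chains as carnitine esters, had 27.1, 28.8 and 26.6 FPKM in GQYS, against 28.5, 31.7 and 30.7 FPKM in IgAN and 26.5, 27.0 and 30.1 FPKM in WT. The groups overlapped for both genes, and the lowest and highest library of Crat differed 1.19-fold.

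Crot, the peroxisomal octanoyltransferase that hands shortened chains on to mitochondria, had 71.1, 66.7 and 61.9 FPKM in GQYS, against 74.0, 81.8 and 72.1 FPKM in IgAN and 78.0, 105 and 87.3 FPKM in WT. All GQYS values lay below all IgAN and all WT values, while IgAN and WT overlapped. Means were 66.6 ± 4.58 FPKM in GQYS, 76.0 ± 5.16 FPKM in IgAN and 90.1 ± 13.6 FPKM in WT (SD, n = 3 each). The log2 difference was -0.42 ± 0.12 (SE) in GQYS against WT, with an unadjusted p of 0.00648 and an adjusted p of 0.861 by limma, the smallest of the 34 genes in that comparison. With weights for library quality it was -0.60 with an adjusted p of 0.0289. Over all 21 alternative settings the difference stayed between -0.60 and -0.31 and the adjusted p between 0.0289 and 1. In IgAN against WT the difference was -0.23 (adjusted p = 0.577, limma), and with the same weights it was -0.41 with an adjusted p of 0.0431, in a range of 0.0431 to 0.912 over the alternatives.

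The acyl-CoA dehydrogenases open each turn of beta-oxidation and differ in the chain length they accept. Acadl, for long chains, had 164, 157 and 164 FPKM in GQYS, against 189, 177 and 187 FPKM in IgAN and 175, 166 and 165 FPKM in WT. The 3 groups did not overlap, with IgAN above WT and WT above GQYS, although the gap between the nearest GQYS and WT libraries was under 1 FPKM. The log2 differences were 0.13 ± 0.09 (SE) in IgAN against WT, -0.19 ± 0.09 in GQYS against IgAN and -0.06 ± 0.09 in GQYS against WT, with limma adjusted p of 0.682, 0.502 and 0.999. Acadm, for medium chains, had 403, 423 and 409 FPKM in GQYS, against 414, 529.8 and 482 FPKM in IgAN and 411, 501 and 407 FPKM in WT. Its 3 GQYS values were close together and overlapped with IgAN replicate 1 and the lower WT libraries (log2 difference of -0.20 ± 0.13 (SE) in GQYS against IgAN, adjusted p = 0.665, limma). Acads, for short chains, had 109, 111 and 111 FPKM in GQYS, against 108, 108 and 127 FPKM in IgAN and 91.5, 93.8 and 113 FPKM in WT. A single WT library reached the level of the other groups, and the log2 difference in IgAN against WT was 0.20 ± 0.11 (SE, adjusted p = 0.604, limma).

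Acadvl, for very long chains, had 157, 155 and 153 FPKM in GQYS, against 147, 178 and 158 FPKM in IgAN and 135, 159 and 162 FPKM in WT. Acad11, a further member of the dehydrogenase family, had 78.7, 90.8 and 70.1 FPKM in GQYS, against 68.5, 101 and 86.2 FPKM in IgAN and 55.6, 97.1 and 103 FPKM in WT. WT replicate 1 was the lowest library for both. As a group, the 5 dehydrogenases were nominally higher in IgAN than WT in 5 of 5 cases and nominally lower in GQYS than IgAN in 5 of 5, with median log2 differences of 0.11 and -0.08, and none passed the threshold. The signs depended on the setting. Of the 5, 4 were higher in IgAN than WT after quantile normalization or rescaling without mitochondrially encoded genes. The count was 3 without WT replicate 1, or with the mitochondrial share of FPKM as a covariate. In GQYS against IgAN, Acadl and Acadm stayed lower under all alternatives. Acadvl, Acads and Acad11 did not, and reached 0.04, 0.03 and 0.19 at their highest.

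The later steps of the mitochondrial cycle are carried by the trifunctional protein, whose subunits are encoded by Hadha and Hadhb, and by Hadh, Echs1 and Acaa2. Hadha and Hadhb lie head to head on mouse chromosome 5. In RefSeq for GRCm38.p6 their starts are 273 bases apart, and the 250 bases before the start of either gene overlap over 228 bases, so they share most of 1 upstream stretch. It is shown because both genes share most of it, and it is given on the strand of Hadhb, chr5:30155003-30155252, plus strand:
Hadhb upstream: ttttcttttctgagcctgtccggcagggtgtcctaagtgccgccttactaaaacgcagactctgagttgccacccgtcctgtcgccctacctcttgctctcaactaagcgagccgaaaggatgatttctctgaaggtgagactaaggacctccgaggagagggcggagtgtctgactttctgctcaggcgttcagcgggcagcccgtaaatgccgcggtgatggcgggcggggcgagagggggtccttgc

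Hadha had 64.6, 89.4 and 62.1 FPKM in GQYS, against 61.5, 91.7 and 74.3 FPKM in IgAN and 45.6, 78.7 and 80.0 FPKM in WT. Hadhb had 26.8, 37.0 and 29.8 FPKM in GQYS, against 23.8, 33.9 and 32.7 FPKM in IgAN and 20.8, 32.7 and 31.7 FPKM in WT. Both were lowest in WT replicate 1, as 20 of the 34 genes were, so this is not particular to the pair. The part of the shared stretch in their levels was not tested. The highest library had 2.01 times the lowest for Hadha and 1.78 times for Hadhb. The ratio of Hadha to Hadhb moved less than either level. It averaged 2.30 ± 0.19 in GQYS, 2.52 ± 0.224 in IgAN and 2.37 ± 0.168 in WT (SD, n = 3 each), with a highest over lowest of 1.30.

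Hadh, the 3-hydroxyacyl-CoA dehydrogenase for shorter chains, had 321 ± 10.2 FPKM in GQYS, 321 ± 25.4 FPKM in IgAN and 314 ± 34.2 FPKM in WT (SD, n = 3 each). Echs1, the short-chain enoyl-CoA hydratase, had 153 ± 5.65 FPKM in GQYS, 154 ± 17.8 FPKM in IgAN and 157 ± 26.2 FPKM in WT. For both genes the group means differed by less than the SD of the WT libraries. Acaa2, the mitochondrial thiolase that closes the cycle, had 153, 202 and 169 FPKM in GQYS, against 136, 161 and 180.4 FPKM in IgAN and 134, 142 and 159.5 FPKM in WT. Its groups overlapped, and its log2 difference in GQYS against WT was 0.26 ± 0.14 (SE, unadjusted p = 0.0959, adjusted p = 0.999, limma).

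Unsaturated chains need auxiliary enzymes. Eci1 and Eci2 encode enoyl-CoA isomerases that move double bonds into reach of the cycle. Eci1 had 88.0, 71.8 and 87.9 FPKM in GQYS, against 86.2, 79.1 and 82.5 FPKM in IgAN and 91.8, 62.0 and 69.9 FPKM in WT. Eci2 had 36.7, 39.6 and 35.4 FPKM in GQYS, against 38.9, 41.9 and 37.9 FPKM in IgAN and 31.8, 42.1 and 33.3 FPKM in WT. WT replicate 1 was the highest library for Eci1 and the lowest for Eci2, and the groups overlapped for both. The dienoyl-CoA reductases were among the steadiest members. Decr1, the mitochondrial form, stayed between 77.2 and 89.7 FPKM and Decr2, the peroxisomal form, between 26.8 and 31.8 FPKM over the 9 libraries, and neither set of groups separated.

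In peroxisomes, Ehhadh encodes the bifunctional hydratase and dehydrogenase, and Acaa1a and Acaa1b encode 2 closely related thiolases. Ehhadh had 301, 396 and 267 FPKM in GQYS, against 296, 399 and 349.5 FPKM in IgAN and 217, 387 and 289.9 FPKM in WT. The groups overlapped (log2 difference of 0.25 ± 0.22 (SE) in IgAN against WT, adjusted p = 0.775, limma). Pex11a, which helps peroxisomes to elongate and divide, was the steadiest of the 34 genes, between 27.0 and 30.8 FPKM over the 9 libraries.

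Acaa1b had 144, 122 and 149 FPKM in GQYS, against 165, 162 and 154 FPKM in IgAN and 139.9, 116 and 120.1 FPKM in WT. All IgAN values lay above all WT and all GQYS values, while GQYS and WT overlapped. Means were 138 ± 14.3 FPKM in GQYS, 160.2 ± 5.68 FPKM in IgAN and 125 ± 12.7 FPKM in WT (SD, n = 3 each). The log2 difference was 0.35 ± 0.11 (SE) in IgAN against WT, with an unadjusted p of 0.0108 and an adjusted p of 0.274 by limma, the smallest of the 34 genes in that comparison. In GQYS against IgAN it was -0.21 ± 0.11 (adjusted p = 0.587, limma). The IgAN against WT difference passed the limma threshold in 2 of 21 alternative settings. With library quality weights it was 0.41 (adjusted p = 0.0232). With the mitochondrial share of FPKM as a covariate it was 0.45 (adjusted p = 0.0373). Over the alternatives the adjusted p ranged from 0.0232 to 0.573.

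Acaa1a had 59.4, 61.3 and 61.6 FPKM in GQYS, against 54.9, 58.8 and 59.0 FPKM in IgAN and 50.1, 52.1 and 57.6 FPKM in WT. Here the GQYS values lay above all IgAN and all WT values, by less than 1 FPKM at the nearest IgAN library. The log2 difference was 0.19 ± 0.09 (SE) in GQYS against WT (unadjusted p = 0.0651, adjusted p = 0.999, limma). Because the genes are near copies, reads may have been divided unevenly between them, so their sum is given as well. Acaa1a and Acaa1b together had 199 ± 14.1 FPKM in GQYS, 218 ± 4.35 FPKM in IgAN and 179 ± 10.9 FPKM in WT (SD, n = 3 each). The ratio of Acaa1b to Acaa1a was 2.28 ± 0.249 in GQYS, 2.79 ± 0.197 in IgAN and 2.37 ± 0.372 in WT. In RefSeq for GRCm38.p6 the copies lie on chromosome 9 in opposite orientation, and the upstream stretches are shown since these genes differed in which group was highest. They are chr9:119157094-119157343, minus strand, for Acaa1b and chr9:119341044-119341293, plus strand, for Acaa1a:
Acaa1b upstream: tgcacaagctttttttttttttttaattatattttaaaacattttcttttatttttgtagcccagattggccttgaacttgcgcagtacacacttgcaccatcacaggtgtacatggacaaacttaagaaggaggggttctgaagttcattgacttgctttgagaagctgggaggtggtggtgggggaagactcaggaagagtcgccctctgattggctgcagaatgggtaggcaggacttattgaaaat
Acaa1a upstream: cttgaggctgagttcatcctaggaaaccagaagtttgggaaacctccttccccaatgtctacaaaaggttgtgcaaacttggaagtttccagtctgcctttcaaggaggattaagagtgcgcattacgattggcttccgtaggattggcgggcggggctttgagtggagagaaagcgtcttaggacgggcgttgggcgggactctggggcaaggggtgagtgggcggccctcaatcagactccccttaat

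PPAR-alpha binds DNA with its partner RXR at 2 copies of AGGTCA 1 base apart. The 250 bases before the RefSeq starts (GRCm38.p6) were found for 31 of the 34 genes, in 34 windows, and were searched for AGGTCA on both strands. The letters were in 6 of 34 windows (17.6%), of Slc27a2, Acsm1, Cpt1a, Acadvl, Acadm and Echs1, against 14.0% of 32851 windows of all genes. Windows with the pair count among those with the letters. The pair 1 base apart was in 0 of the 34 windows and in 0.0335% of all windows. No match says only that these letters are not in this stretch. The window of Cpt1a, the controlled step of entry, is chr19:3323051-3323300, plus strand, and that of Acadm is chr3:153944644-153944893, minus strand, with the matched letters in capitals:
Cpt1a upstream: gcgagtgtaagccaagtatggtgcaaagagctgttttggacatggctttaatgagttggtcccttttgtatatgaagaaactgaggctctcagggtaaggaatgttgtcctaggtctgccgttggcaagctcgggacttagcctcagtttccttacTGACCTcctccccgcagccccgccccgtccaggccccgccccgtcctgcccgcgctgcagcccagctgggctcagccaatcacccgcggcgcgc
Acadm upstream: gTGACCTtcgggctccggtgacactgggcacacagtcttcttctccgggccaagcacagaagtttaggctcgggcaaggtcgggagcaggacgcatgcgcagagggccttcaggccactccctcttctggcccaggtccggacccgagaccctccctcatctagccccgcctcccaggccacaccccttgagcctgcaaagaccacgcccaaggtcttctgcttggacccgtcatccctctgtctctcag

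Electrons from the dehydrogenases pass to the electron transfer flavoprotein, whose subunits are encoded by Etfa and Etfb, and on to its dehydrogenase Etfdh. Etfa was steady, between 34.4 and 39.6 FPKM over the 9 libraries. Etfb had 444, 366 and 457 FPKM in GQYS, against 498, 429.8 and 478 FPKM in IgAN and 576, 352 and 348 FPKM in WT. Etfdh had 94.6, 108 and 83.2 FPKM in GQYS, against 70.6, 113 and 93.2 FPKM in IgAN and 56.8, 118 and 116 FPKM in WT. In WT replicate 1 Etfb was at its highest and Etfdh at its lowest of all libraries, and the ratio of Etfb to Etfdh was 10.1 there, against 2.97 to 7.05 in the other 8. Neither gene separated the groups.

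Acot2, a mitochondrial thioesterase that splits long-chain acyl-CoA, had 14.6, 22.5 and 13.3 FPKM in GQYS, against 12.5, 12.6 and 14.1 FPKM in IgAN and 10.7, 12.2 and 11.9 FPKM in WT. GQYS replicate 2 was far above the rest, and all GQYS and all IgAN values lay above all WT values, the nearest IgAN library by less than 1 FPKM. The log2 difference in GQYS against WT was 0.47 ± 0.17 (SE, unadjusted p = 0.0222, adjusted p = 0.999, limma), and without GQYS replicate 2 it was 0.25. Acot2 has a near copy, Acot1, and the ratio of Acot2 to Acot1 lay between 0.280 and 0.437 in the 9 libraries. Bdh1, the beta-hydroxybutyrate dehydrogenase of mitochondria, had 49.4, 40.3 and 38.9 FPKM in GQYS, against 47.1, 46.7 and 50.3 FPKM in IgAN and 50.3, 50.0 and 43.0 FPKM in WT. GQYS replicate 1 reached the level of the other groups and the other 2 GQYS libraries were the lowest (log2 difference of -0.17 ± 0.12 (SE) in GQYS against IgAN, adjusted p = 0.721, limma).

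**Figure D3:**
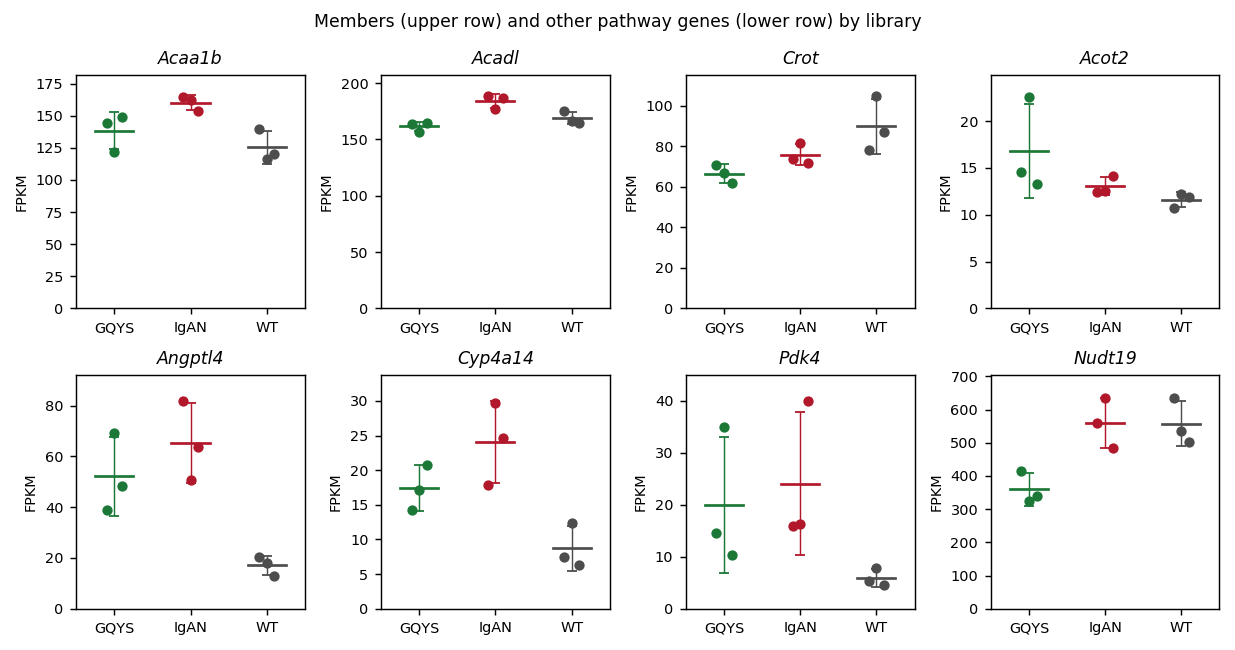
FPKM per library of 4 members (upper row) and 4 other genes of the pathway (lower row), with GQYS, IgAN and WT from left to right; points are libraries, lines the mean and bars the SD of 3 libraries. Acaa1b and Acadl are highest in IgAN, Crot is lowest in GQYS, and Angptl4 is at least 38.9 FPKM in all knock-in libraries, against at most 20.3 FPKM in WT.

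The 34 genes also differed between libraries of the same group. WT replicate 1 was the lowest of the 9 libraries for 20 of the 34 genes (58.8%), among them Acsl1, Etfdh, Ppara, Hadha and Acad11, while 34.7% of all tested genes were lowest there. It was the highest for 3 genes, Etfb, Eci1 and Bdh1. The median deviation of the 34 genes from their own means was -0.21 log2 in WT replicate 1 and -0.10 over all tested genes. IgAN replicate 1 followed at -0.09, and IgAN replicate 2 and WT replicate 2 stood highest at 0.11 and 0.10. In WT replicate 1 the deviation was related to gene length as implied by the FPKM steps, with a Spearman correlation of -0.38 across the 34 genes and -0.45 across all 11617 tested genes, so longer genes tended to be lower. In WT replicate 2 it was 0.62 across the 34 genes and 0.28 across all genes. Libraries of the other groups showed a relation to length as well. Across the 34 genes it was -0.40 in IgAN replicate 1, 0.49 in WT replicate 3 and 0.36 in GQYS replicate 2. Across all genes these libraries had -0.29, 0.43 and 0.42. The weakest relation across the 34 genes was -0.17, in GQYS replicate 1. These genes share libraries and are not independent replicates, and the part of gene length in the results was not tested. The mitochondrial share of FPKM was fitted as a covariate among the alternatives, given below.

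**Figure D4:**
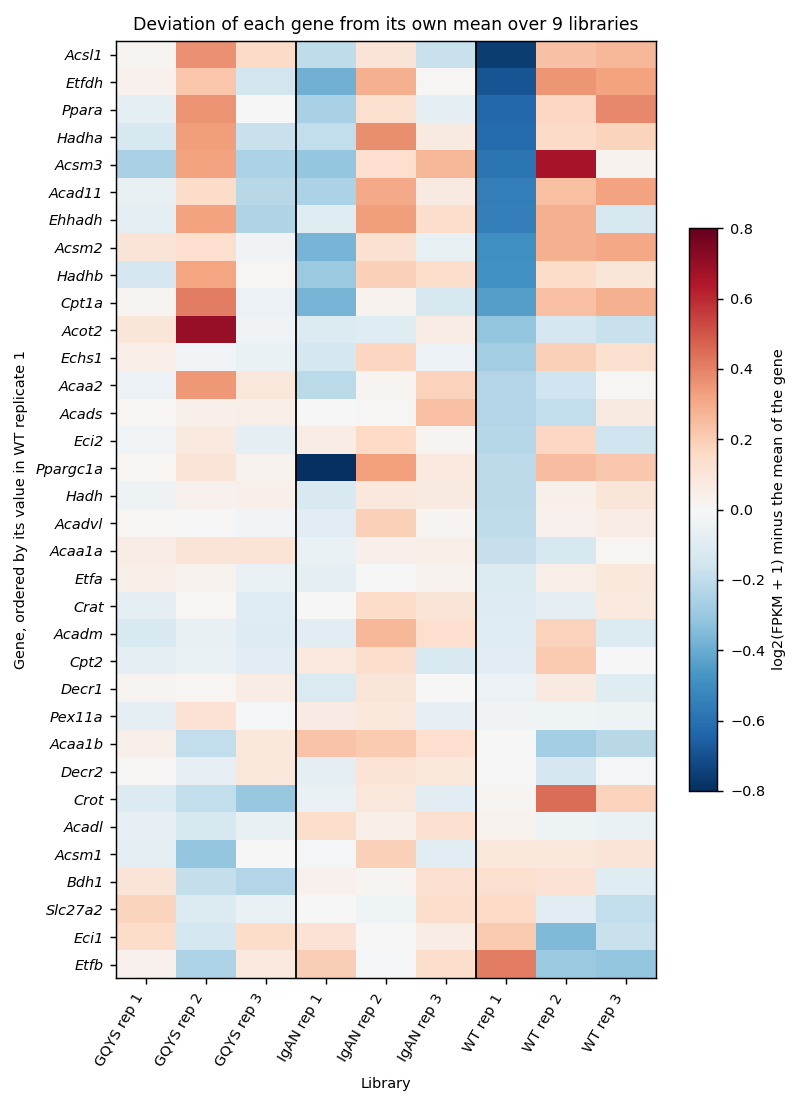
Deviation of each gene from its own mean over 9 libraries, on log2(FPKM + 1), with genes ordered by their value in WT replicate 1 and libraries in columns. The column of WT replicate 1 is mostly blue, for lower values, with a median of -0.21.

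**Figure D5:**
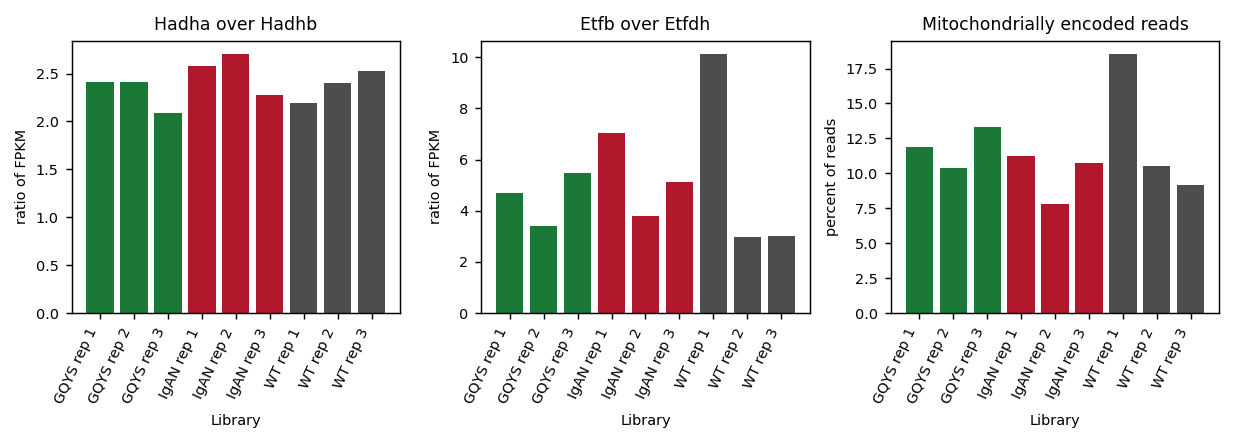
Ratio of FPKM of Hadha to Hadhb, ratio of Etfb to Etfdh, and percent of reads on mitochondrially encoded genes, in each of the 9 libraries. WT replicate 1 has the highest Etfb to Etfdh ratio, 10.1, and the highest mitochondrial share, 18.6%, while the Hadha to Hadhb ratio stays between 2.08 and 2.71.

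The balance of signs given above depended on single libraries and on the scaling. With quantile normalization, 16 members were nominally higher and 18 lower in IgAN against WT. The same scaling gave 18 higher and 16 lower in GQYS against IgAN. With median-of-ratios scaling, 17 were higher and 17 lower in GQYS against WT. Without WT replicate 1, 17 members were nominally higher and 17 lower in IgAN against WT, with a median of 0.00, and 11 were higher and 23 lower in GQYS against WT, with a median of -0.06. Without IgAN replicate 2, 19 were higher and 15 lower in GQYS against IgAN, with a median of 0.02. Without GQYS replicate 2, 16 were higher and 18 lower in GQYS against WT, with a median of -0.01. Without WT replicate 3, the library with fat markers, the counts were 26 and 8 in IgAN against WT and 25 and 9 in GQYS against WT. A fit with the share of summed FPKM on mitochondrially encoded genes as a covariate called 4 members by limma in IgAN against WT. They were Acaa1b, Etfb at 0.45 (adjusted p = 0.0353), Acsm2 at -0.45 (adjusted p = 0.0424) and Cpt1a at -0.48 (adjusted p = 0.0439). In GQYS against IgAN the same fit called Acsl1 at 0.57 (adjusted p = 0.038) and Cpt1a at 0.52 (adjusted p = 0.0427). Over the alternatives the adjusted p of Cpt1a ranged from 0.0439 to 0.984 and from 0.0427 to 0.995 in these comparisons, that of Etfb from 0.0353 to 0.986, that of Acsm2 from 0.0424 to 0.999 and that of Acsl1 from 0.038 to 0.999.

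The rest of the pathway was described from a list of 74 further genes, of which 62 were tested. Angptl4, a secreted inhibitor of lipoprotein lipase and a well known PPAR target, was the only gene among them called. The call was made in IgAN against WT, and 0 of them were called by limma in the other comparisons. It had 38.9, 69.3 and 48.4 FPKM in GQYS, against 81.8, 50.5 and 63.7 FPKM in IgAN and 20.3, 18.1 and 13.0 FPKM in WT. All knock-in libraries lay above all WT libraries. Angptl4 rose by 1.87 ± 0.24 log2 (SE) in IgAN against WT (adjusted p = 0.0136, limma), and the call ended without WT replicate 2 (adjusted p = 0.0574), without IgAN replicate 3 (0.0821) and with no filter on low values (0.0748), in a range of 0.00076 to 0.0821 over the alternatives. In GQYS against IgAN it differed by -0.33 ± 0.24 (adjusted p = 0.739) and in GQYS against WT by 1.54 ± 0.24 (adjusted p = 0.317), which passed the threshold in 1 of 21 alternatives, with library quality weights (0.0204, in a range of 0.0204 to 0.999).

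The other genes of that list did not pass the threshold in any comparison in this fit, and some did under alternatives. By limma, 9 of the 62 had an unadjusted p under 0.05 in IgAN against WT, where 10.3% of all genes tested did. In GQYS against IgAN 6 did, beside 10.4% of all genes, and in GQYS against WT 8 did, beside 4.43%. Median log2 differences of the 62 were -0.01, 0.00 and 0.03 in these comparisons. Cyp4a14, a PPAR-alpha responsive fatty acid omega-hydroxylase, had 14.2, 17.1 and 20.8 FPKM in GQYS, against 17.9, 29.7 and 24.7 FPKM in IgAN and 7.41, 12.3 and 6.35 FPKM in WT. The IgAN and the GQYS values all lay above the WT values, and the log2 difference was 1.39 in IgAN against WT (adjusted p = 0.0549, limma), which passed in 6 of 21 alternatives (0.0198 to 0.205 over them). Cyp4a10, its relative, had 171 ± 12.0 FPKM in GQYS, 187 ± 29.8 FPKM in IgAN and 136 ± 23.1 FPKM in WT (SD, n = 3 each, log2 difference in IgAN against WT of 0.46, adjusted p = 0.293, limma). Pdk4, the kinase that holds back pyruvate oxidation when fat is burned, had 14.6, 34.9 and 10.4 FPKM in GQYS, against 16.0, 16.3 and 39.9 FPKM in IgAN and 5.33, 7.88 and 4.57 FPKM in WT. All knock-in libraries again lay above all WT libraries, with a log2 difference of 1.75 in IgAN against WT and 1.45 in GQYS against WT (adjusted p = 0.158 and 0.875, limma). With library quality weights Pdk4 was called in IgAN against WT (adjusted p = 0.0247, in a range of 0.0247 to 0.381 over the alternatives).

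Ppard, the receptor PPAR-delta, had 11.6, 9.15 and 11.0 FPKM in GQYS, against 22.2, 20.1 and 15.9 FPKM in IgAN and 9.15, 9.37 and 14.7 FPKM in WT. The IgAN values lay above both other groups, which overlapped (log2 difference of 0.78 in IgAN against WT and -0.81 in GQYS against IgAN, adjusted p = 0.147 and 0.15, limma). Library quality weights alone among the alternatives called Ppard, in both comparisons (adjusted p = 0.0299, in a range of 0.0299 to 0.404, and 0.0481, in a range of 0.0481 to 0.479). Ppargc1b, a coactivator related to Ppargc1a, was low, with 1.96 ± 0.282 FPKM in GQYS, 1.41 ± 0.243 FPKM in IgAN and 1.96 ± 0.113 FPKM in WT (SD, n = 3 each). Nudt19, a peroxisomal hydrolase of CoA and its esters, had 416, 324 and 339 FPKM in GQYS, against 560.1, 636 and 484 FPKM in IgAN and 634, 537 and 502 FPKM in WT. All GQYS values lay below all others, with a log2 difference of -0.64 in GQYS against IgAN and -0.63 in GQYS against WT (adjusted p = 0.152 and 0.673, limma). Library quality weights (adjusted p = 0.0336, limma) and the mitochondrial share of FPKM as a covariate (0.0441) each called Nudt19 in GQYS against IgAN. Its adjusted p ranged from 0.0336 to 0.556 over the alternatives. In GQYS against WT it was called in none of them (0.0525 to 1). Slc27a1, a fatty acid transporter, and Acot3, a peroxisomal thioesterase, differed by 0.39 and 0.43 log2 in GQYS against IgAN (adjusted p = 0.329 and 0.324, limma). Slc27a1 was called with library quality weights (adjusted p = 0.032, in a range of 0.032 to 0.85) and Acot3 under no alternative (0.0656 to 0.717).

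Of the genes that handle ketone bodies, Oxct1, which lets tissues use them as fuel, had 381 ± 68.8 FPKM in GQYS, 385 ± 53.8 FPKM in IgAN and 353 ± 59.4 FPKM in WT (SD, n = 3 each), and its groups overlapped.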

How the data were processed

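Kidney RNA of 3 groups, 3 libraries each, was extracted with TRIzol, and libraries were made with a VAHTS Universal V6 kit (labels' protocols). Values come from 1 deposited table of FPKM, which the authors scaled by gene length and library total, for 26139 genes. The tools named are fastp, HISAT2, HTSeq, DESeq2 and R 3.2.0, with the build GRCm39, per the submitters' processing notes, which give no roles. Annotation and strand setting of counting: not given in the sources used here. A gene and its antisense partner can thus not be separated. The library names in the labels tied columns to samples.

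FPKM depends on the library total, so abundant genes shift all others. Low FPKM values moved in steps, and whole reads were recovered for 26139 of 26139 genes (100% within 0.03 reads). For genes seen in few libraries such a match can arise by chance. The totals of 30564947 to 38161564 reads per library differed by at most -0.0108% from those implied by the step sizes. No libraries of the same group were duplicates, with a chi-square per gene of 17.8 to 191 between them. Libraries of different groups were not compared in this way.

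Groups were compared with limma 3.58.1 (R 4.3.3), fitted to log2(FPKM + 1) of all 9 libraries with a mean-variance trend. The pseudocount of 1 understates changes of low genes. The filter asked for 3 libraries with an FPKM of 1 or more and left 11617 genes. Benjamini-Hochberg adjusted p-values were taken over these genes for each comparison, with calls below 0.05. An exact permutation test of 3 against 3 libraries cannot go below 0.1 and was not used.

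The 34 members, the 74 further pathway genes and the markers were chosen with earlier results of these data known. All members are named. Values in every library are given for the 10 members with the smallest unadjusted p in each comparison and for the 3 highest and 3 lowest by mean, and of the further genes the 5 with the smallest p in each comparison are named. 1 further gene so selected is not reported here. A few more members, and Oxct1, were described after their values were seen. The 21 alternatives covered the pseudocount, filter, scaling, replicate block, samples fitted, library weights and the mitochondrial share. They also covered voom on recovered reads and each library left out. As a covariate, the mitochondrial share was that of summed FPKM, not of reads. Upstream sequences are from RefSeq for GRCm38.p6, another build than that of the table, and matched by symbol. Python 3.11.15 with pandas 2.3.3, scipy 1.17.1 and matplotlib 3.10.9 made the tables and figures.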

Additional observations from a re-analysis of the deposited data

How the results depend on the processing

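Members past the threshold stayed at 0 in each of the 3 comparisons under all alternatives except library quality weights (2 in IgAN against WT, 1 in GQYS against WT) and the mitochondrial share as a covariate (4 in IgAN against WT, 2 in GQYS against IgAN). The median log2 difference of members moved beyond the spread between libraries only in GQYS against WT with library quality weights, to -0.0804. Over all genes, the 41 calls in IgAN against WT became 21 with no filter, 11 with only the 2 groups compared, 655 with weights and 636 with the covariate, and 13 to 64 when a library was left out. The 23 calls in GQYS against IgAN became 15 with a pseudocount of 0.1, 13 with no filter, 43 with only the 2 groups, 404 with weights, 308 with the covariate, 44 without the first library of both WT and IgAN, and 6 to 55 when a library was left out. The 0 calls in GQYS against WT (515 genes at an unadjusted p under 0.05) became 53 with weights and 0 to 1 when a library was left out. Of the other pathway genes, the 1 call in IgAN against WT became 0 with no filter, 2 with median-of-ratios scaling, 7 with weights, 6 with the covariate, 2 without both first libraries, and 0 to 1 when a library was left out. In GQYS against IgAN their count became 3 with weights and 2 with the covariate, and in GQYS against WT 1 with weights. The cause of these shifts was not tested. The replicate block gave 68 genes and 2 other pathway genes in IgAN against WT and called 0 members. The replicate numbers were not taken as pairing. Deviations of each library from its group mean, over all tested genes, were correlated between libraries of different groups. Same-numbered libraries of IgAN and WT gave 0.58, 0.47 and 0.08. Those of GQYS and WT gave 0.32, 0.39 and -0.36, and those of GQYS and IgAN 0.22, 0.35 and -0.10. Pairs of different number ranged from -0.63 (IgAN replicate 2 with WT replicate 1) to 0.53 (IgAN replicate 2 with WT replicate 3). Up to 11 of the 34 members changed sign under a single alternative, while no member whose groups did not overlap, or with an unadjusted p under 0.05, did so. Every member had at least 807 reads in every library, and 3 libraries per group limit the precision.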
